A study of Mus musculus with 6 samples.

Results

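The 10 genes described here are *Nfe2l2*, *Keap1*, *Nqo1*, *Gclc*, *Gclm*, *Gsr*, *Txnrd1*, *Srxn1*, *Prdx1* and *Sod2*, which encode the transcription factor NRF2, its inhibitor and enzymes of antioxidant defence. They were chosen by name, and each symbol was held by 1 of the 23424 genes counted. All 10 were among the 14645 protein-coding genes tested.

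RNA of tumor-associated macrophages (TAMs) was sequenced in bulk from a subset with high F4/80 (F4/80high) and one with low F4/80 (F4/80low), in 3 libraries each. YUMM1.7 is a mouse melanoma line, and here its cells were grown in the skin of untreated, wild-type (WT) C57Bl/6J females that were 8 weeks old when injected. On day 21, live CD45+ CD11b+ cells without lineage markers (Lin-) were sorted by their level of F4/80, the macrophage surface protein encoded by *Adgre1*. Each library came from 10 pooled tumors of 1 of 3 independent experiments, so no value belongs to a single animal. Libraries that share a replicate number were taken as a pair from one experiment, which the sample titles do not state. *Adgre1* was higher in F4/80high in 3 of 3 pairs, and each of 10 macrophage markers was counted in both subsets.

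NRF2 is a transcription factor that is made continuously and is normally destroyed, because KEAP1 binds it and presents it to a ubiquitin ligase built on CUL3. Oxidants and electrophiles modify cysteines of KEAP1, NRF2 then accumulates and, paired with a small MAF protein, binds antioxidant response elements in front of genes that make and recycle glutathione and thioredoxin. NRF2 activity is thus set mostly at the protein level, which counts of RNA do not measure. In macrophages this program limits the damage from their own oxidative burst and restrains inflammatory genes.

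The element that gives the program its name is shown from promoter windows with a match, since the genes of those windows are compared below. Its core was searched as TGACNNNGC on both strands of RefSeq windows of 300 bases (GRCm38.p6), which run from 250 bases before to 50 bases after a gene's start. Windows were at hand for 8 of the 10 genes, 10 windows in all, and not for *Gsr* and *Gclc*. The core was found in 1 window each of 5 genes, against 12.4% of all 32851 windows, and not in those of *Keap1*, *Nqo1* and *Sod2*. Each is printed 5′ to 3′ on the strand that reads the core, with the core in capitals and 10 bases on either side:
*Nfe2l2*: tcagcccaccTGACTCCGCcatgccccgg
*Gclm*: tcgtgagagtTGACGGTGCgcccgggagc
*Txnrd1*: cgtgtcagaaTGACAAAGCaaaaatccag
*Srxn1*: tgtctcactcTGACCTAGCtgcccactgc
*Prdx1*: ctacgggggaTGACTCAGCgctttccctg
These stretches lie at chr2:75704885-75704913, chr3:122245413-122245441, chr10:82859104-82859132, chr2:152105542-152105570 and chr4:116685456-116685484 of GRCm38.p6, all on the minus strand. The core began 240, 134, 92 and 133 bases before the start of *Nfe2l2*, *Gclm*, *Txnrd1* (the second of its 3 windows) and *Prdx1*, and 28 bases after that of *Srxn1*. In *Prdx1* the core also holds TGACTCA, the AP-1 motif. Anywhere in a window and on either strand, that motif had 2 matches each in *Prdx1* and *Srxn1*, and was present in 5.20% of all windows. A match of letters is not a measured binding site. Bases outside these windows were not searched, so a gene without a match here may still carry the element.

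Of the 10 genes, *Gsr* differed most between the subsets. Its mean level was 2.59 times as high in F4/80low as in F4/80high TAMs, and it was lower in F4/80high in 3 of 3 pairs. The regulators *Nfe2l2* and *Keap1*, and *Sod2*, *Srxn1*, *Gclm* and *Nqo1*, had log2 fold changes between -0.10 and 0.066. *Txnrd1* (-0.54), *Prdx1* (0.42) and *Gclc* (0.42) lay between. A positive log2 fold change means a higher level in F4/80high TAMs. Levels are counts per 1000000 reads (CPM) after TMM scaling, which brings the libraries to a common size, and are listed for replicates 1, 2 and 3 in that order.

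The comparison used edgeR's quasi-likelihood test over all 14645 genes with the batch as a term, and a call needed an adjusted p (Benjamini-Hochberg) under 0.05 together with a log2 fold change beyond 1 in either direction. By this rule 0 of the 10 genes were called, as were 0.00% of all genes. At an unadjusted p under 0.05 there was 1 of the 10 lower in F4/80high (*Gsr*), where 4.32% of all genes were, and 0 higher, where 3.28% were. With the replicate number as a block, which compares the 2 libraries of each pair, edgeR called 1 of the 10 (*Gsr*) and 0.519% of all genes. The study itself used DESeq2, with a correction for batch and this same threshold. Here DESeq2 with the batch term also called *Gsr* alone of the 10, and 1.01% of all genes, as did DESeq2 with the block, with 2.42%. The median log2 fold change of the 10 was -0.0051, and that of all genes tested was 0.0091.

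**Figure D1:**
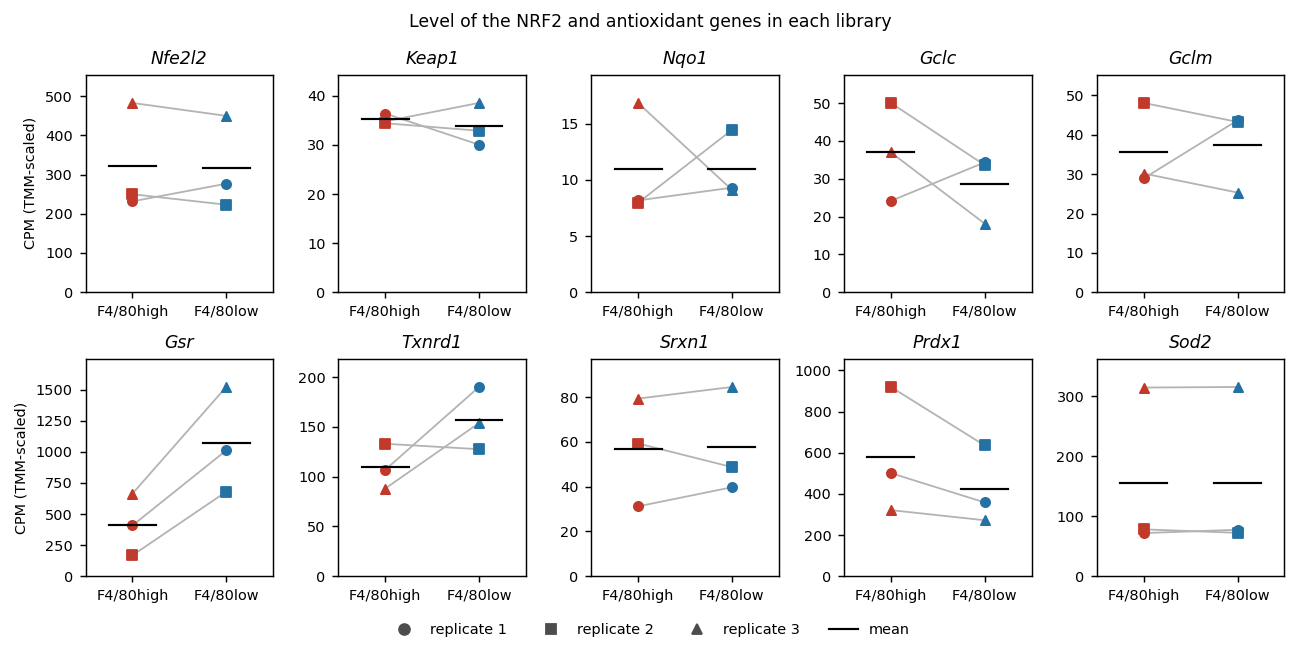
Level of each of the 10 genes in CPM (vertical axes, linear and from 0) in the 3 F4/80high and 3 F4/80low libraries. Symbols mark the replicate, lines join libraries of one replicate number and bars are means. The 3 *Gsr* lines all run upward to F4/80low, while those of *Sod2* and *Nfe2l2* are nearly level and replicate 3 lies far above replicates 1 and 2.

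Among the regulators, *Nfe2l2* (ENSMUSG00000015839, chromosome 2 from 75675513 to 75704641), the gene of NRF2 itself, measured 232, 249.7 and 482 CPM in the F4/80high libraries and 277, 223 and 449.5 in the F4/80low libraries. Replicate 3 was the highest in both subsets, and the subsets overlapped. The mean was 321 ± 139.9 CPM for F4/80high against 316 ± 118 for F4/80low (SD, n = 3). This was a log2 fold change of -0.0018, SE 0.21 and edgeR adjusted p = 0.999, with a 95% interval of -0.49 to 0.48. *Keap1* (ENSMUSG00000003308, chromosome 9 from 21229730 to 21239361), the adaptor that marks NRF2 for destruction, measured 36.4, 34.4 and 34.8 CPM in the F4/80high libraries and 30.0, 32.9 and 38.6 in the F4/80low libraries. It varied least of the 10 in F4/80high, where its SD was 2.97% of the mean, and the subsets overlapped. Its mean was 35.2 ± 1.05 CPM for F4/80high against 33.8 ± 4.33 for F4/80low (SD, n = 3), with a log2 fold change of 0.066, SE 0.23 and edgeR adjusted p = 0.961, and a 95% interval of -0.45 to 0.58.

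*Gsr* (ENSMUSG00000031584, chromosome 8 from 33652523 to 33698163) encodes glutathione reductase, which uses NADPH to return oxidized glutathione to its reduced form. It measured 408, 168 and 663 CPM in the F4/80high libraries and 1011, 679 and 1521 in the F4/80low libraries. The highest F4/80high library lay below the lowest F4/80low library, so the subsets did not overlap, which held for 2.90% of all genes in this direction. The log2 differences of the 3 pairs were -1.31, -2.02 and -1.20, each lower in F4/80high and the largest in pair 2. The mean was 413 ± 248 CPM for F4/80high against 1070.2 ± 424 for F4/80low (SD, n = 3). In edgeR this was a log2 fold change of -1.44 (SE 0.35, 95% interval -2.21 to -0.66, adjusted p = 0.440), and by its unadjusted p of 0.00236 in edgeR it ranked 77 of 14645. With the replicate block edgeR gave -1.51 (SE 0.21, adjusted p = 0.0304), and with DESeq2 and the batch term -1.44 (adjusted p = 0.0101), both past the threshold. Within batch 1 alone (replicates 1 and 2) it was -1.55 (edgeR adjusted p = 1.00), and in batch 2, with 1 library of each subset, the pair differed by -1.20. Leaving out 1 library at a time gave -1.83 (without F4/80high replicate 1) to -1.15 (without F4/80high replicate 2). In these bulk libraries, fewer cells of a type and less RNA per cell cannot be told apart.

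Markers of granulocytes differed in the same direction as *Gsr*. All 10 neutrophil markers were lower in F4/80high TAMs, 8 of them at an unadjusted edgeR p under 0.05, where 4.32% of all genes were. Their summed level was 753 to 2147 CPM in F4/80high and 1535 to 4908 CPM in F4/80low libraries. The log2 differences of that sum were -1.19, -1.75 and -1.03 in pairs 1, 2 and 3. All 8 eosinophil markers were lower as well, 6 of them at the same threshold, with sums of 175 to 523 and 387 to 1502 CPM. None of these markers was at 0 in every library, though *Epx* was at or under 1.46 CPM in each and had 0 counts in F4/80high replicate 1. *Alox15* alone held 724 of the 1095 CPM of the eosinophil sum in F4/80low replicate 1 and 898 of 1502 in F4/80low replicate 2. In F4/80high replicate 3 it held 62.1 of 175 CPM. The summed macrophage markers were 5801 to 29242 CPM in F4/80high and 5119 to 12563 in F4/80low libraries, above both granulocyte sums in all 6. *Lyz2* alone held 5925 of the 9212 CPM of that sum in F4/80low replicate 1, where the neutrophil sum was 4908 CPM. In that library the order of macrophage and neutrophil sums rests on *Lyz2*, so these sums do not measure the share of each cell type. The sort took Lin- cells, a gate meant to remove other lineages, and the markers in that gate are not given in the sources used here. The part of these cells in the difference of *Gsr* was not tested.

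*Gclc* (ENSMUSG00000032350, chromosome 9 from 77754535 to 77794485) and *Gclm* (ENSMUSG00000028124, chromosome 3 from 122245557 to 122270732) encode the catalytic and the modifier subunit of glutamate-cysteine ligase, the first and rate-limiting enzyme of glutathione synthesis. *Gclc* measured 24.2, 50.1 and 37.0 CPM in the F4/80high libraries and 34.3, 33.6 and 18.1 in the F4/80low libraries. Its pairs disagreed, with log2 differences of -0.51, 0.57 and 1.02, and the subsets overlapped. The mean was 37.1 ± 13.0 CPM for F4/80high against 28.7 ± 9.15 for F4/80low (SD, n = 3), with a log2 fold change of 0.42, SE 0.33 and edgeR adjusted p = 0.784. The log2 fold change of *Gclc* was 0.76 when F4/80high replicate 1 was left out (adjusted p = 0.278 in edgeR), and 0.13 when F4/80high replicate 2 was. *Gclm* measured 28.9, 48.1 and 30.2 CPM in the F4/80high libraries and 43.7, 43.3 and 25.3 in the F4/80low libraries. Its pairs also went both ways (-0.59, 0.15 and 0.25), and *Gclc* and *Gclm* had the same sign as each other in 3 of 3 pairs. The mean of *Gclm* was 35.7 ± 10.7 CPM for F4/80high against 37.4 ± 10.5 for F4/80low (SD, n = 3), with a log2 fold change of -0.037, SE 0.27 and edgeR adjusted p = 0.985.

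In the thioredoxin system, *Txnrd1* (ENSMUSG00000020250, chromosome 10 from 82833951 to 82897712), the cytosolic reductase that keeps thioredoxin reduced, measured 107, 133 and 88.1 CPM in the F4/80high libraries and 190.2, 128 and 154 in the F4/80low libraries. In pairs 1 and 3 its level was lower in F4/80high and in pair 2 it was close, with log2 differences of -0.83, 0.060 and -0.80. The subsets overlapped only through pair 2, where F4/80high was at 133 and F4/80low at 128 CPM. The mean was 109 ± 22.6 CPM for F4/80high against 157 ± 31.4 for F4/80low (SD, n = 3). This gave a log2 fold change of -0.54 (SE 0.25, 95% interval -1.09 to 0.017, edgeR adjusted p = 0.677), which did not pass. *Prdx1* (ENSMUSG00000028691, chromosome 4 from 116685544 to 116700822) encodes a peroxiredoxin that removes hydrogen peroxide with electrons from thioredoxin. It measured 501, 919.6 and 321 CPM in the F4/80high libraries and 359, 636 and 272 in the F4/80low libraries. It was higher in F4/80high in 3 of 3 pairs (0.48, 0.53 and 0.24), while replicates differed more than the subsets and the subsets overlapped. The mean was 581 ± 307 CPM for F4/80high against 422 ± 189.9 for F4/80low (SD, n = 3), with a log2 fold change of 0.42, SE 0.31 and edgeR adjusted p = 0.754. With the replicate block its SE was 0.18, its unadjusted edgeR p 0.0448 and its adjusted p 0.488. Leaving out F4/80high replicate 2 brought its log2 fold change to 0.077. *Srxn1* (ENSMUSG00000032802, chromosome 2 from 152105516 to 152111376) encodes sulfiredoxin, which repairs peroxiredoxins that hydrogen peroxide has inactivated. It measured 31.2, 59.3 and 79.3 CPM in the F4/80high libraries and 39.7, 48.8 and 84.5 in the F4/80low libraries, with both replicate 3 libraries the highest and the subsets overlapping. The mean was 56.6 ± 24.2 CPM for F4/80high against 57.7 ± 23.7 for F4/80low (SD, n = 3), with a log2 fold change of -0.0084, SE 0.28 and edgeR adjusted p = 0.997.

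*Nqo1* (ENSMUSG00000003849, chromosome 8 from 107388225 to 107403206), a quinone reductase much used as a readout of NRF2 activity, was the member with the fewest counts. It measured 8.18, 7.96 and 16.9 CPM in the F4/80high libraries and 9.31, 14.5 and 9.13 in the F4/80low libraries, and its lowest count was 80 reads in F4/80low replicate 3, where counting error alone is 11.2%. The log2 differences of its pairs were -0.19, -0.85 and 0.88, so pairs 2 and 3 pointed in opposite directions. The mean was 11.0 ± 5.08 CPM for F4/80high against 11.0 ± 3.02 for F4/80low (SD, n = 3), with a log2 fold change of -0.10, SE 0.40 and edgeR adjusted p = 0.967. Its 95% interval of -0.999 to 0.799 was the widest of the 10.

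*Sod2* (ENSMUSG00000006818, chromosome 17 from 13006846 to 13040063) encodes the superoxide dismutase of mitochondria and, besides NRF2, responds to NF-κB. It measured 71.9, 78.1 and 314 CPM in the F4/80high libraries and 77.4, 72.3 and 315 in the F4/80low libraries. Within each replicate the subsets were close (log2 differences -0.11, 0.11 and -0.0044), whereas both replicate 3 libraries stood far above the other 4. The mean was 155 ± 138 CPM for F4/80high against 155 ± 139 for F4/80low (SD, n = 3). In edgeR the log2 fold change was 7.6e-05 (95% interval -0.46 to 0.46, SE 0.20, adjusted p = 1.00).

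**Figure D2:**
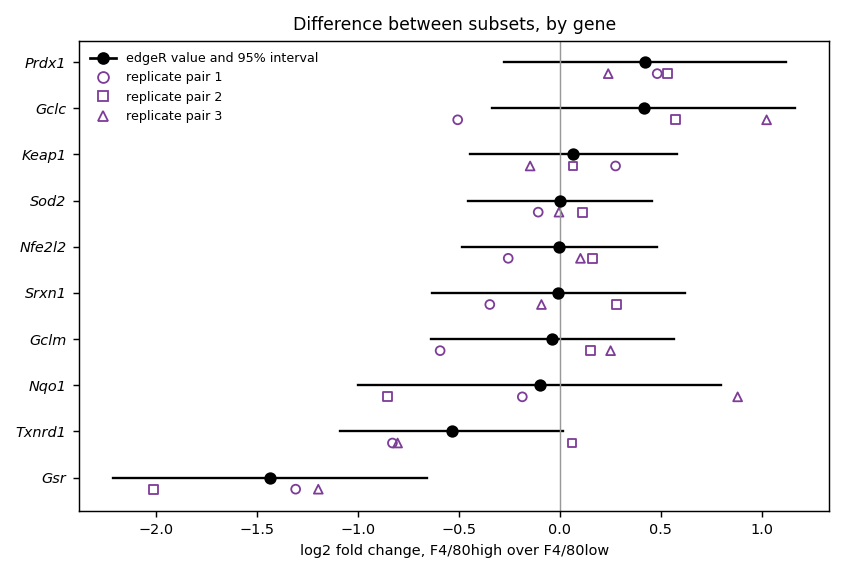
Log2 fold change of F4/80high over F4/80low TAMs (horizontal axis) for each gene, as the edgeR value with its 95% interval (black) and as the difference in each replicate pair (open symbols). The interval of *Gsr* lies wholly below 0, and its 3 pairs lie between -2.02 and -1.20; the other 9 intervals include 0.

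Counted over pairs, 2 of the 10 genes went one way in 3 of 3 pairs (*Gsr* lower and *Prdx1* higher in F4/80high), where 34.2% of all genes did so in either direction. With CPM scaled by library size alone, 4 of the 10 did (*Txnrd1* and *Sod2* besides), and 33.9% of all genes. The subsets did not overlap for 1 of the 10, where they did not for 5.20% of all genes. The 5 genes with the core element in a window had log2 fold changes from -0.54 to 0.42, and 3 of them were within 0.04 of 0. Their directions in the pairs also differed, for with TMM only *Prdx1* of the 5 went one way in all 3.

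For 8 of the 10 genes, more of the spread over the 6 libraries lay between batches than between subsets, with *Gsr* and *Txnrd1* as the exceptions. The same share over all genes was not counted. For *Gclc* (17.0% batch, 15.3% subset), *Keap1* (32.0% and 8.26%) and *Nqo1* (16.5% and 0.414%), most of the sum of squares lay in neither. By the study, replicate 3 of each subset formed batch 2, and the other libraries formed batch 1. In the edgeR fit, 5 of the 10 genes differed between the batches at an adjusted p under 0.05, against 42.6% of all genes. *Sod2* was higher in batch 2 by a log2 fold change of 2.07 (edgeR adjusted p = 7.51e-05), *Gsr* by 1.03 (0.0394), *Nfe2l2* by 0.93 (0.00822) and *Srxn1* by 0.87 (0.0355). *Prdx1* was lower in batch 2, with -1.005 (0.0409). The batch held 99.8% of the sum of squares of log2 CPM over the 6 libraries for *Sod2* and 94.9% for *Nfe2l2*, whose shares for the subset were under 0.01%. For *Gsr* the subset held 55.8% and the batch 26.8%, and for *Txnrd1* they held 54.7% and 9.12%. Batch 2 libraries were smaller (16045281 and 16204810 counts, against 30292061 to 43604373), and the 3 features *Gm15564*, *Gm23935* and *Lars2* made up 16.1% and 17.1% of reads there, where they made up 0.378% to 0.609% in batch 1. What sets batch 2 apart in these genes was not tested.

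**Figure D3:**
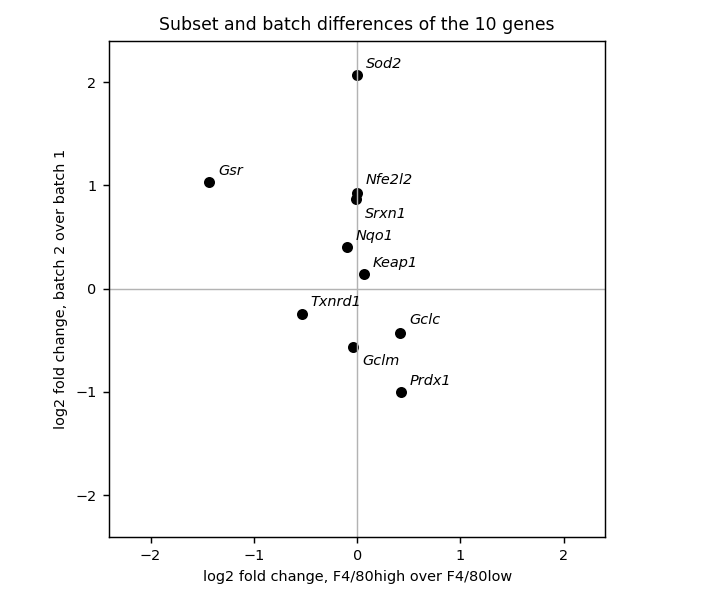
Log2 fold change between subsets (horizontal axis, F4/80high over F4/80low) against that between batches (vertical axis, batch 2 over batch 1) for the 10 genes, from one edgeR fit. *Gsr* stands alone on the left at -1.44, and *Sod2* stands at the top with 2.07 between batches and 7.6e-05 between subsets.

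Levels of different genes were set side by side per kilobase of the length given in the tables. Over the 6 libraries the mean order was *Gsr* (269 CPM per kb), *Prdx1* (165), *Nfe2l2* (84.0), *Sod2* (40.5), *Txnrd1* (39.0), *Srxn1* (20.3), *Gclc* (9.61), *Keap1* (7.40), *Nqo1* (7.07) and *Gclm* (5.81). Every neighbour in this order overlapped with the next over the 6 libraries, so no step of it exceeds the spread between libraries. *Sod2* owes its place to batch 2, with 82.2 and 82.4 CPM per kb. In the 4 batch 1 libraries it was at 18.8 to 20.4 and *Txnrd1* was above it in each, at 31.3 to 55.6 CPM per kb. Within a library, *Nfe2l2* was above *Sod2* and *Srxn1* above *Gclc* in 6 of 6. The top of the order varied by subset and by batch. In F4/80low TAMs *Gsr* was above *Prdx1* in 3 of 3 libraries (389 ± 154 against 139 ± 62.4 CPM per kb, SD), and in F4/80high TAMs in 1 of 3 (149.9 ± 89.9 against 191 ± 101). That 1 library was F4/80high replicate 3, of batch 2, with 241 against 106 CPM per kb.

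Around the 10 genes, 7 lists of antioxidant genes held 100 further genes, all tested. Of these, 46 were higher and 54 lower in F4/80high TAMs, 4 and 7 of them at an unadjusted edgeR p under 0.05, which is 11.0% together where 7.60% of all genes were. The median log2 fold change was -0.061, and 0 were called. The medians of the 7 lists ran from -0.29 for glutathione synthesis to 0.22 for other NRF2 targets. Values after a gene below are log2 fold changes ± SE from edgeR, then their range when 1 library at a time was left out, and none of these genes was called in that fit.

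Glutathione users include 2 genes that other fits called, 1 of the 24 with the block in edgeR and 2 of the 24 by DESeq2 with either term, where those fits called 0.519% (block), 1.01% (DESeq2 with batch) and 2.42% (DESeq2 with the block) of all genes. Of this list, 9 of 24 genes were higher and 15 lower in F4/80high (median log2 fold change -0.13). *Hpgds*, a prostaglandin D synthase that works with glutathione, measured 66.4, 147 and 127 CPM in the F4/80high libraries and 13.4, 47.2 and 11.6 in the F4/80low libraries. The F4/80high libraries were all above the F4/80low libraries. Its level differed by a log2 fold change of 2.33 (SE 0.55, edgeR adjusted p = 0.440), and it was called with the replicate block (edgeR adjusted p = 0.0300) and by DESeq2 with batch (0.00294). *Mgst1*, a membrane-bound glutathione transferase, measured 52.7, 62.7 and 21.5 CPM in the F4/80high libraries and 100, 96.5 and 67.2 in the F4/80low libraries. All F4/80high libraries lay below the F4/80low libraries. The difference was a log2 fold change of -1.05 (SE 0.26, edgeR adjusted p = 0.440), and it was called by DESeq2 with batch (adjusted p = 0.0327) and not with the block in edgeR (0.133). *Gpx3*, a secreted glutathione peroxidase, was higher in 3 of 3 pairs (0.67 ± 0.35, range 0.28 to 0.87), and *Gstm1*, a soluble transferase, was lower in 3 of 3 (-0.62 ± 0.30, range -0.78 to -0.28).

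For glutathione synthesis and cystine supply, 2 of 9 genes were higher and 7 lower in F4/80high (median log2 fold change -0.29), and 2 of the 9 were lower at an unadjusted p under 0.05, where 4.32% of all genes were. *Slc7a11*, the antiporter that brings in cystine for glutathione synthesis and is a target of NRF2, measured 50.2, 31.8 and 108 CPM in the F4/80high libraries and 127, 67.0 and 143 in the F4/80low libraries. It was lower in F4/80high in 3 of 3 pairs, and the subsets overlapped (a log2 fold change of -0.96, SE 0.33 and edgeR adjusted p = 0.533). Without F4/80low replicate 1 its log2 fold change was -0.58. *Ggt5*, which cleaves glutathione and its conjugates outside the cell, was also lower in 3 of 3 pairs (-0.94 ± 0.38, range -1.21 to -0.42). *Slc3a2*, the partner chain of *Slc7a11* and of other transporters, was higher in 3 of 3 pairs (0.25 ± 0.22, range 0.11 to 0.35). *Oplah*, which recycles glutamate from oxoproline, had 1.12 ± 0.79, but its pairs differed by 0.11, 0.11 and 3.77, so the value rests on pair 3, where F4/80low replicate 3 held 6 counts. In batch 1 alone it was 0.11.

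In the thioredoxin and peroxiredoxin system, 9 of 17 genes were higher and 8 lower in F4/80high (median log2 fold change 0.062). *Msrb1* and *Prdx6*, which repair oxidized methionine and reduce lipid peroxides, were lower in 3 of 3 pairs (-0.73 ± 0.26, range -0.96 to -0.54 and -0.69 ± 0.25, range -0.94 to -0.54). *Sesn1*, a sestrin, was higher in 3 of 3 (0.86 ± 0.27, range 0.69 to 1.10), as was *Txnrd2*, the mitochondrial thioredoxin reductase (0.41 ± 0.30, range 0.27 to 0.57). Of the removal of superoxide and peroxide, 3 of 6 genes were higher and 3 lower in F4/80high (median log2 fold change 0.012). Of these, *Cat*, the gene of catalase, was lower in 3 of 3 pairs (-0.22 ± 0.21, range -0.34 to -0.16). *Sod1*, which encodes the cytosolic superoxide dismutase, had -0.084 ± 0.30, range -0.46 to 0.14, and its pairs differed by 0.59, -0.90 and -0.12. It measured 23.0, 10.6 and 671 CPM in the F4/80high libraries and 15.3, 19.8 and 728 in the F4/80low libraries. Between batches its log2 fold change was 5.35, larger than that of *Sod2*. *Park7* (0.31 ± 0.28, range 0.091 to 0.61) and *Ccs* (0.25 ± 0.29, range 0.091 to 0.47) were higher in 2 of 3.

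*Gsr* and *Txnrd1* both draw on NADPH. In the list of NADPH supply, 3 of 9 genes were higher and 6 lower in F4/80high (median log2 fold change -0.25). *Taldo1*, the transaldolase of the pentose phosphate pathway, measured 409, 374 and 86.4 CPM in the F4/80high libraries and 647, 631 and 135 in the F4/80low libraries. It was lower in F4/80high in 3 of 3 pairs by nearly equal steps (-0.66, -0.75 and -0.65) with overlapping subsets. It had a log2 fold change of -0.69, SE 0.21 and edgeR adjusted p = 0.504, and its DESeq2 adjusted p with batch was 0.0344 at a fold change under the threshold. *Me1*, malic enzyme, was lower in 3 of 3 (-0.67 ± 0.41, range -0.97 to -0.36), *Idh2*, the mitochondrial isocitrate dehydrogenase, was higher in 3 of 3 (0.39 ± 0.26, range 0.16 to 0.58), and *Mthfd2* had 0.18 ± 0.23, range 0.071 to 0.29.

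Among other regulators of NRF2, 7 of 15 genes were higher and 8 lower in F4/80high (median log2 fold change -0.0099). That median ran from -0.048 without F4/80high replicate 1 to 0.28 without F4/80low replicate 1. *Palb2*, a DNA repair protein that also binds KEAP1, was higher without overlap of the subsets (a log2 fold change of 1.26, SE 0.42 and edgeR adjusted p = 0.527). *Btrc*, part of a second ligase for NRF2, was higher in 3 of 3 pairs (0.55 ± 0.31, range 0.42 to 0.79). *Mafk*, a small MAF partner, was lower in 3 of 3 (-0.61 ± 0.38, range -0.99 to -0.24), and *Gsk3b*, the kinase that marks NRF2 for that ligase, was lower in 3 of 3 by a small step (-0.11 ± 0.21, range -0.15 to -0.075). That step is small beside the batches, for *Gsk3b* measured 76.4 to 87.7 CPM in batch 1 libraries and 1415 and 1477 in batch 2. Of the other NRF2 targets, 13 of 20 genes were higher and 7 lower in F4/80high (median log2 fold change 0.22). Without F4/80high replicate 2 that median was -0.061. *Cbr1* and *Blvrb*, reductases of carbonyls and of biliverdin, were higher in 3 of 3 pairs (0.86 ± 0.38, range 0.65 to 1.26 and 0.74 ± 0.35, range 0.39 to 1.09). *Trim16*, a ubiquitin ligase, was lower without overlap of the subsets (a log2 fold change of -1.30, SE 0.39 and edgeR adjusted p = 0.504), and *Abcc4*, an export pump, was lower in 3 of 3 (-0.63 ± 0.30, range -0.84 to -0.39).

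NF-κB targets were set beside *Sod2*. Of this list, 2 of 12 genes were higher and 10 lower in F4/80high (median log2 fold change -0.50), and 9 of the 12 were lower in 3 of 3 pairs, where 18.2% of all genes were. *Birc3* and *Cxcl2*, an inhibitor of apoptosis and a neutrophil chemokine, were lower (-0.89 ± 0.29, range -1.24 to -0.72 and -0.60 ± 0.21, range -0.67 to -0.51), and *Ccl4* and *Tnf* were higher (0.85 ± 0.23, range 0.73 to 1.00 and 0.53 ± 0.42, range 0.20 to 1.19), each in 3 of 3 pairs. The summed neutrophil markers differed in the same direction in each pair (-1.19, -1.75 and -1.03), as did the summed eosinophil markers (-1.07, -2.50 and -1.14). So did the sums of dendritic cells, fibroblasts, mast cells and basophils, endothelial cells and erythroid cells. The part of these cells in the values of this list was not tested. *Sod2* differed from 0 by no more than 0.11 on the log2 scale in any pair. The median of this list ran from -0.77 without F4/80high replicate 1 to -0.24 without F4/80low replicate 1.

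**Figure D4:**
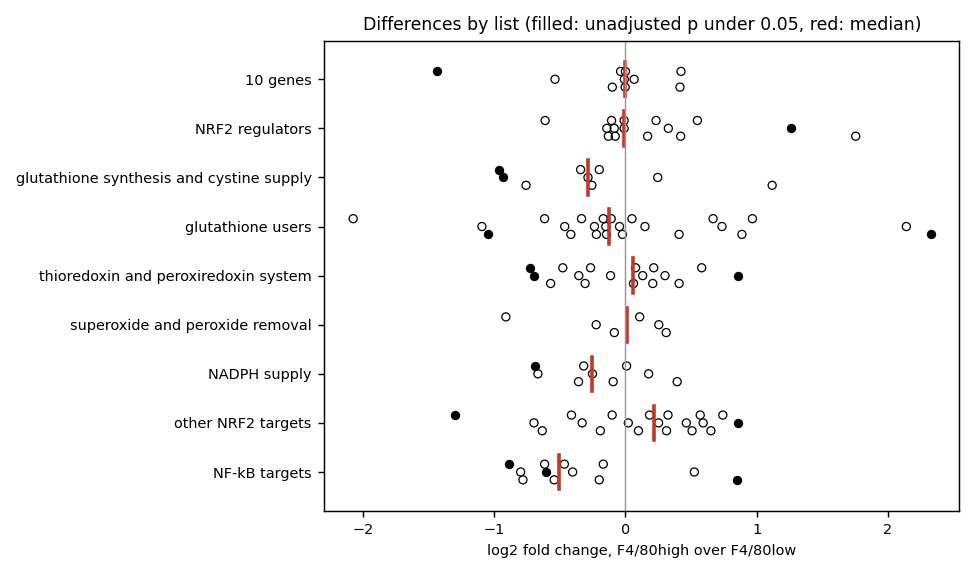
Log2 fold change of F4/80high over F4/80low TAMs (horizontal axis) for each gene of the 10 and of 8 lists (rows). Each point is a gene, filled where its unadjusted edgeR p was under 0.05, and red bars are medians, which run from -0.50 for NF-κB targets to 0.22 for other NRF2 targets.

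Markers of further cell types varied beside these values. Summed dendritic cell markers were 73.3 to 258 CPM in F4/80high and 129 to 414 in F4/80low libraries, those of fibroblasts 459 to 1559 and 1079.8 to 1914, and those of T and NK cells 196 to 1232 and 97.3 to 580.4. The sums of B and plasma cells, endothelial cells, mast cells and basophils, erythroid cells, the 5 melanoma markers in the tables and the 2 keratinocyte markers were all at or under 168 CPM. The melanoma sum was highest in the batch 2 libraries, with 168 and 108 CPM against 14.5 to 28.4 in batch 1. That sum was nearly all *Mitf*, a gene that macrophages also express, with 167 and 104 CPM in batch 2, and each of the other 4 markers was at or under 5.13 CPM in every library. *Nfe2l2*, *Keap1*, *Gclm*, *Gsr* and *Txnrd1* overlap other annotated genes, and the use of strand in counting is not given in the sources used here. Of those overlapping genes that were counted, the largest was *Gm24996* within *Nfe2l2*, with 1116 counts over the 6 libraries.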

How the data were processed

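RNA was taken from F4/80high and F4/80low TAMs, 3 libraries each, and poly-A libraries were sequenced and aligned by the standard pipeline of the authors' sequencing center. The authors deposited raw read counts for 23424 genes, with the length of each gene and its biotype. The aligner, counting rule, annotation and genome build are not given in the sources used here. Gene positions are those of GENCODE M21 (GRCm38), where 99.4% of the gene IDs were found. Total counts were 16045281 to 43604373 a library, and the 10 genes held 80 to 47338 counts each, with counting errors of 11.2% to 0.460%.

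Protein-coding genes by the M21 biotype with at least 10 counts over the 6 libraries were kept (14645). They were compared in R 4.3.3 with edgeR 4.0.16 (TMM, quasi-likelihood test, terms for batch and subset). Pairs are differences of log2 CPM with a prior count of 2. The alternatives were DESeq2 1.42.0 (DESeq2 was the tool of the study), the replicate block, other normalizations and filters, and leaving out libraries. Replicates of one number were taken to come from one experiment. Within pairs 1, 2 and 3 the deviations from the mean of each subset had correlations of 0.745, 0.729 and 0.907. These deviations hold the batch difference, which replicates 1 and 2 share, so the correlations cannot show which libraries form a pair. The edgeR and DESeq2 fits were run on simulated counts that held a batch effect and no pair effect. That check was on the median estimate of the changed genes, not on the calls. No library was a copy of another.

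The 10 genes, the lists and the tests were chosen with earlier results of these data known. Of each list, the up to 2 genes with the smallest p in each direction at a mean of at least 1 log2 CPM are named. Marker lists covered 12 cell types. The melanoma markers *Tyr*, *Dct* and *Tyrp1* and 4 keratinocyte markers were not analysed here.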

Additional observations from a re-analysis of the deposited data

How the results depend on the processing

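Calls depended on the tool and on the pairing, and the cause was not tested. Over all genes 0 were called in edgeR with batch, 76 with the replicate block, 148 by DESeq2 with batch, 354 by DESeq2 with the block and 57 in edgeR without F4/80high replicate 1 (0 to 57 over the libraries left out). With batch in edgeR, 1113 genes had an unadjusted p under 0.05. Of the 10 genes, 1 (*Gsr*) was called in each of the 3 fits with the block or DESeq2, at log2 fold changes of -1.51 (edgeR with the block), -1.44 (DESeq2 with batch) and -1.50 (DESeq2 with the block). Over 17 alternatives its adjusted p ran from 3.24e-08 to 1.00, with 0.0591 without F4/80high replicate 1, and its log2 fold change from -1.83 to -1.15. The block changed no other call of the 10. Of the glutathione users, 0 were called in edgeR with batch, 1 with the block, 2 by DESeq2 with either term, and 0 to 1 over the libraries left out (*Hpgds*, without F4/80high replicate 1). Without F4/80high replicate 3 or F4/80low replicate 3, batch 2 keeps 1 library, which the batch term absorbs, so these fits equal batch 1 alone in what they compare.

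Of the 10 genes, 6 near 0 changed sign, none past the threshold. *Nfe2l2* was 0.0032 with the block, 0.022 with no batch term, 0.0013 and 0.0055 by DESeq2 with batch and block, 0.0013 with RLE factors, 0.045 with library size alone and 0.021 with all biotypes. *Srxn1* was 0.020 with library size alone, 0.017 with all biotypes and 0.033 in batch 1 alone. *Sod2* was -0.00018 with the block, -0.0022 with no batch term and -0.0025 with at least 10 counts in every library. Leaving out 1 library gave -0.073 to 0.11 for *Nfe2l2*, -0.0024 to 0.17 for *Keap1*, -0.56 to 0.23 for *Nqo1*, -0.26 to 0.19 for *Gclm*, -0.36 to 0.21 for *Srxn1*, -0.068 to 0.032 for *Sod2* and -0.46 to 0.14 for *Sod1*. With library size alone, 4 of the 10 went one way in 3 of 3 pairs, against 2 with TMM. The other 140 values of the 10 genes kept direction and side of the threshold. Counting error was largest for *Nqo1*, at up to 11.2%, while its SD was 46.2% of the mean in F4/80high and 27.6% in F4/80low.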
